A study of Mus musculus with 10 samples.

Results

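The Rgs gene cluster on mouse chromosome 1 holds Rgs2, Rgs13, Rgs1, Rgs21 and Rgs18, 5 of the 21938 protein-coding genes annotated in GENCODE release M21 on build mm10. All 5 genes lie next to each other in this order and are transcribed from the minus strand, with no other protein-coding gene between them. The members were taken by name, and the open chromatin around them was collected from 200 kb left to 200 kb right of each gene span, with overlapping windows joined into a single window, chr1:143799338-144975435 (1.18 Mb). The cluster was chosen with the peak lists of the same libraries in view, so everything on its peaks is given as a description, without a test.

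RGS proteins (regulators of G protein signaling) speed up GTP hydrolysis by the alpha subunits of heterotrimeric G proteins and thereby shorten the signal of G protein-coupled receptors. The 5 proteins of this cluster are small members of the family that consist of little more than the RGS domain. Rgs1 is best known for limiting chemokine receptor signaling in lymphocytes, Rgs2 for acting on the Gq class of alpha subunits, Rgs13 for its expression in germinal center B cells and mast cells, Rgs18 for its expression in megakaryocytes and platelets, and Rgs21 for its expression in taste cells.

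Accessible DNA was mapped in G1E-ER4 (G1ER) cells by ATAC-seq, a method based on the Tn5 transposase, which cuts and tags open chromatin. G1E-ER4 is a subclone of the Gata1-null mouse erythroid line G1E that constantly carries GATA1 joined to the estrogen receptor ligand-binding domain, so that β-estradiol activates GATA1. The 5 groups were cells without β-estradiol (0 h) and cells after 2, 6, 12 and 24 h in 1e-07 M β-estradiol, with 2 libraries each, labelled replicate 1 and replicate 2 and, by the study's account, from independent experiments, with about 50000 cells used for each. All 10 libraries came from cells in IMDM with 15% FBS, SCF at 50 ng/mL and EPO at 2 U/mL. The libraries come from a clone of a cell line, and untreated cells kept for the same hours were not analysed here, so GATA1 activation and time in culture cannot be told apart. The study designed guide RNAs to the promoters of Rgs1 and Rgs13, which it placed among promoters repressed during differentiation, and the question asked here was how the peaks around all 5 genes were distributed over the time course.

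Each deposited list held the summit, the base of highest signal, of every peak called by MACS2 in 1 library, with a score that is −log10 of the q-value. List sizes ran from 10698 peaks (24 h replicate 2) to 19859 (6 h replicate 2). Read depth is unknown, so an absent summit means only that no peak was called. Scores are not comparable between lists, and each summit was therefore ranked inside its own list as the percent of that list with a lower score. Counts were also made on lists of equal size, the 10698 highest-scoring peaks of each. Among marker genes of the cell line, the promoter of Tfrc, the transferrin receptor gene, held a summit within 1 kb of a start in all 10 libraries. Those of Epor, Klf1, Tal1 and Gata1 held one in 9, 4, 2 and 1 libraries, whereas Alas2, Slc4a1, Hba-a1 and Hbb-bt had none in any. Of the mast cell markers, only Kit had a promoter summit (9 libraries), and none of the markers of megakaryocytes, B cells, T cells or granulocytes and macrophages had one.

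The 10 lists together placed 74 summits in the Rgs window, or 5.04 of every 10000 peaks, where the share of genome length would give 4.32. Before β-estradiol the window held 10 summits in replicate 1 and 5 in replicate 2. After 2 h it held 11 and 9, after 6 h 5 and 15, and after 12 h 6 and 8. At 24 h it held 5 summits in replicate 1 and 0 in replicate 2. The 24 h libraries thus included the only library with an empty window, while their higher count met the lower count of 0 h, so the groups touched. The means were 7.5 ± 3.54 before treatment, 10 ± 1.41 after 2 h, 10 ± 7.07 after 6 h, 7 ± 1.41 after 12 h and 2.5 ± 3.54 after 24 h (SD, n = 2 each). The difference of the means from 0 h was +2.5 after 2 h, +2.5 after 6 h, −0.5 after 12 h and −5 after 24 h.

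**Figure D1:**
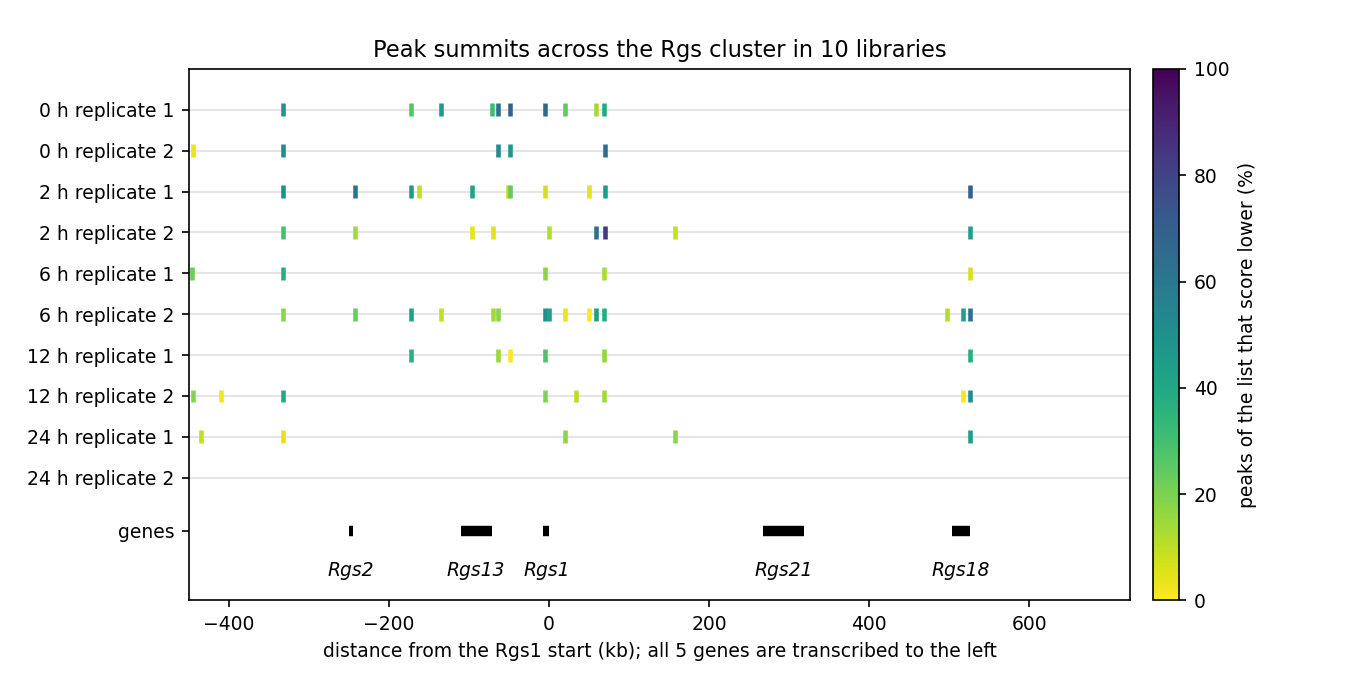
Summits of the Rgs window in each of the 10 libraries (lines), by distance from the Rgs1 start in kb (horizontal axis) and coloured by the percent of the library's list that scored lower, with black bars for the 5 genes. Most summits lie between the left end of the window and about 100 kb to the right of the Rgs1 start, and the line of 24 h replicate 2 is empty.

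The list with the empty window was also the shortest, so the counts were repeated on lists of equal size. Replicate 1 and replicate 2 then held 7 and 4 summits before treatment, 6 and 4 after 2 h, 1 and 2 after 6 h, 2 and 2 after 12 h, and 1 and 0 after 24 h. On this scale every library from 6 h on held fewer summits in the window than either 0 h library, and the means were 5.5 ± 2.12, 5 ± 1.41, 1.5 ± 0.707, 2 ± 0 and 0.5 ± 0.707 (SD, n = 2 each). The direction at 2 h and 6 h thus turned with the size of the lists, with differences from 0 h of −0.5 and −4 on equal lists. At 24 h the direction was the same on both scales and in both replicate numbers. Within replicate 1 the 24 h library held 5 summits fewer than the 0 h library although its list was longer (15573 against 15258 peaks), and within replicate 2 it also held 5 fewer, from a shorter list (10698 against 11698). Within replicate 1 the differences at 2, 6 and 12 h were +1, −5 and −4, and within replicate 2 they were +4, +10 and +3, so with all peaks the replicate numbers went opposite ways at 6 and 12 h. On equal lists the same differences were −1, −6 and −5 within replicate 1 and 0, −2 and −2 within replicate 2, the same direction in both at 6 and 12 h.

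**Figure D2:**
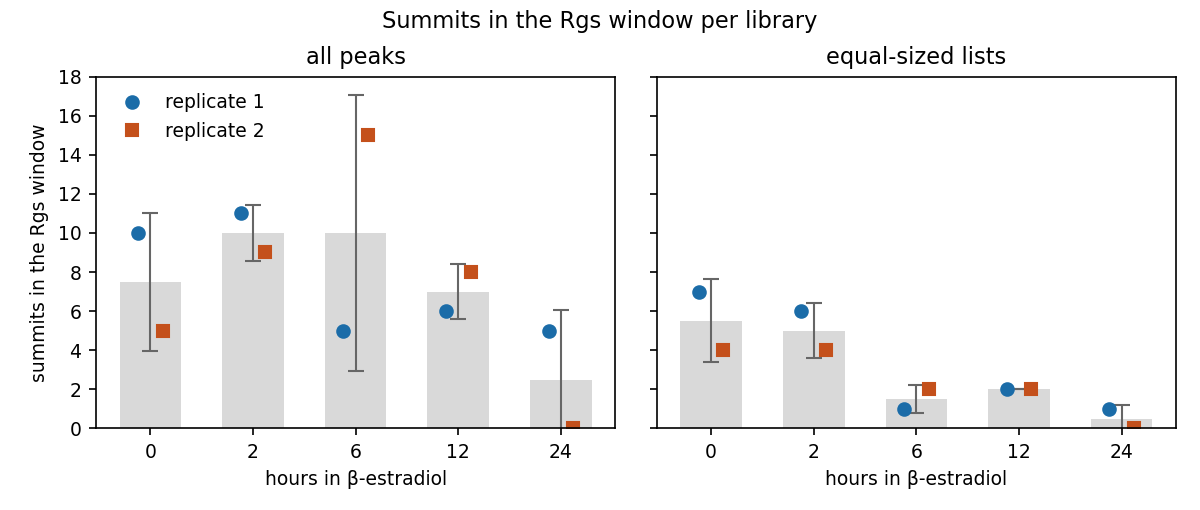
Summits in the Rgs window per library against hours in β-estradiol (evenly spaced categories), from all peaks (left) and from the 10698 highest-scoring peaks of each list (right). Bars are means and error bars SD of 2 libraries, circles are replicate 1 and squares replicate 2; 24 h replicate 2 lies at 0 in both panels, and from 6 h on no library exceeds 2 summits in the right panel.

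Summits extended by 250 bp on each side were merged over all 10 lists into 28981 regions, of which 25 lay in the Rgs window. The widest spanned 942 bp. By annotation, 20 were intergenic, 3 intronic and 2 in untranslated exon parts of Rgs1. The nearest member start was that of Rgs2, Rgs13 or Rgs1 for 7 regions each, that of Rgs18 for 3 and that of Rgs21 for 1. The densest stretch ran from the 3′ end of Rgs13 to 100 kb upstream of the Rgs1 start (chr1:144138654-144349242, 211 kb, a boundary drawn after the values were seen) and held 13 regions and 39 of the 74 summits. Further to the right, chr1:144407025-144746255 (339 kb), which includes all of Rgs21, held no summit in any list. To the right of the region at the Rgs18 start the window was empty too, and the next summit on the chromosome lay 364 kb beyond the window. On the left the nearest summit outside the window lay 4.04 kb from its edge and the nearest inside 4.37 kb from it.

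No region of the cluster could be in all 10 libraries, because 24 h replicate 2 had no summit in the window. Of all 28981 regions, 6234 (21.5%) were. In the cluster 3 of the 25 regions lay within 1 kb of a member start, while 19029 of all 28981 regions lay over 1 kb from a start. The shares over all regions in this paragraph thus mix promoters with distal regions, and none is given for distal regions alone. In the cluster 4 regions (16%) were in 6 or more libraries, against 41% of all regions, and 14 (56%) were in 2 to 5 libraries, against 30.1%. The share found in 1 library only was 28% (7 regions) beside 28.9% of all regions. Of the cluster regions listed at 0, 2, 6 and 12 h, the share in both libraries was 36.4%, 33.3%, 25% and 27.3%. Over all regions it was 55.5% to 60% at these times. At 24 h it could only be 0 of 5 (53.4% over all regions), because 24 h replicate 2 had no summit in the window. From 0 to 12 h most listed regions of the cluster were thus in 1 replicate only. The summits also ranked low, with a median summit scoring above 24.1% of its own list (range 0.0101% to 83.2%) and 14 of the 74 above the middle of theirs. The median rank per library was 42.4% and 51.0% before treatment, 41.6% and 13.7% after 2 h, and 16.4% to 23.3% in the 5 later libraries with a summit.

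**Figure D3:**
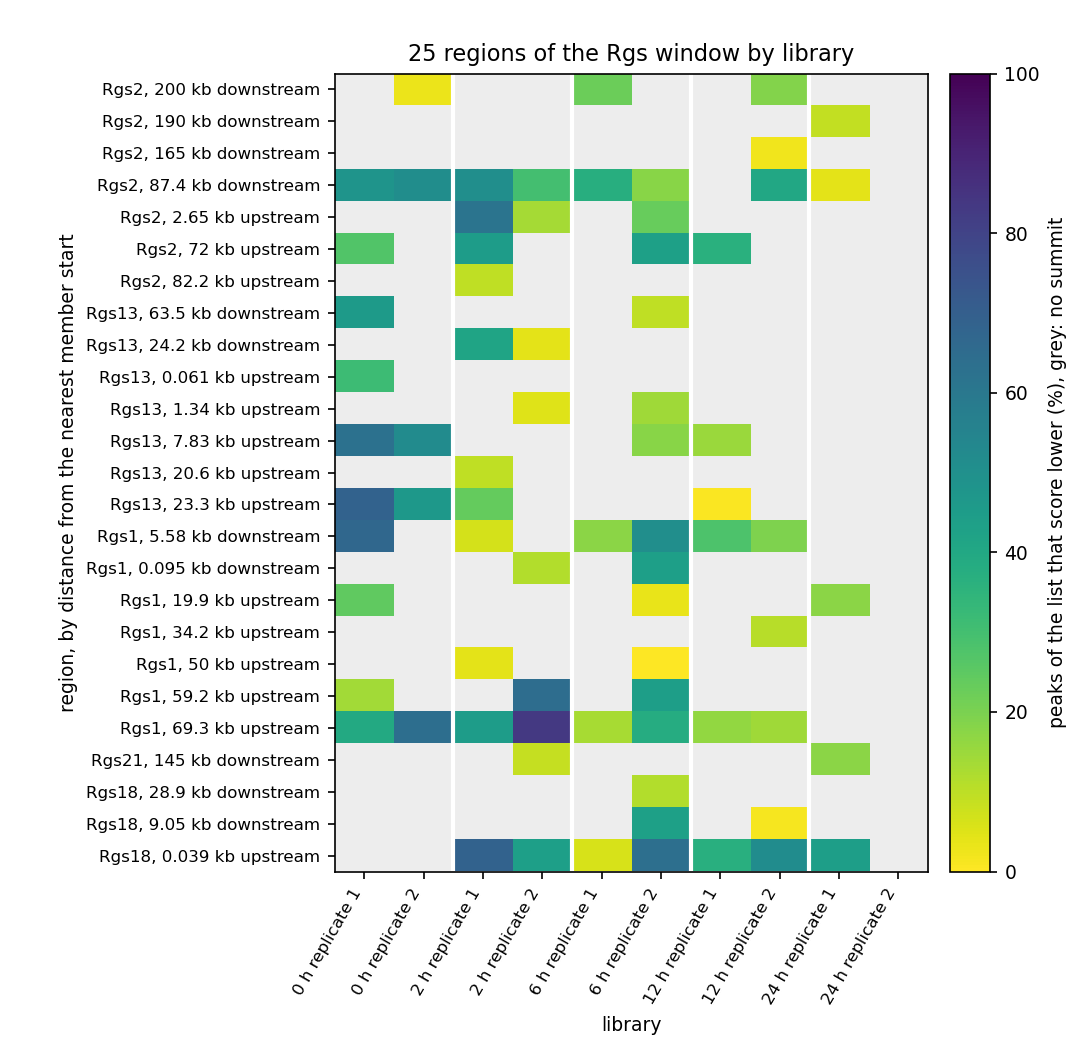
Presence and rank of the 25 regions of the Rgs window (vertical axis, in chromosome order, named by distance from the nearest member start) in the 10 libraries (horizontal axis). Colour gives the percent of the list that scored lower and grey means no summit; no line is filled across all 10 libraries, and the column of 24 h replicate 2 is grey throughout.

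The regions that separated 0 h from a later time point were then taken in turn. A region was called lost when both 0 h libraries and neither library of the later time point had it, and gained in the opposite case. At 24 h 3 of the 25 regions were lost, beside 3.51% of all regions. No region could be gained at 24 h (1.71% of all regions were), because 24 h replicate 2 had no summit in the window. For the same reason each loss at 24 h rested on absence from 24 h replicate 1 alone. At 0 h 4 regions were in both libraries, and 3 of these 4 were the ones lost at 24 h (10.4% over all such regions). At 2 h 1 region was lost (1.15% of all regions) and 3 were gained (2.67%). At 6 h 1 was lost (0.759%) and 1 gained (4.08%), and at 12 h 0 were lost (1.88%) and 1 gained (2.47%). The counts at 6 and 12 h moved with the lists. On equal lists the 3 regions lost at 24 h were already lost at 6 h and at 12 h, and with scores of 5 or more 3 regions were lost at each of these times. Without 0 h replicate 2, 4 regions were lost at 12 h and 8 at 24 h. The shares over all regions are printed for scale only, since the cluster was chosen on these comparisons. They come from the full lists, and none is given for equal lists or score minimums, which remove low-ranking summits everywhere. None is given for calls without a library either, which are easier to meet for every region, so the shares above do not apply to those counts.

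The sequences of the 3 regions lost at 24 h, and of the other region present in both 0 h libraries, are shown as the central 200 bases on the plus strand of mm10. Capitals mark matches on either strand to the GATA motif (AGATAA or TGATAA), which GATA1 and GATA2 recognize, and to the RUNX motif (TGTGGT).
Rgs1, 69.3 kb upstream, chr1:144318435-144318634: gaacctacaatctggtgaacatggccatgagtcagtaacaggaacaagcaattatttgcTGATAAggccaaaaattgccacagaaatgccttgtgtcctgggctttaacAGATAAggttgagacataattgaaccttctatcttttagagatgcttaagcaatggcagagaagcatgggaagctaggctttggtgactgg
Rgs13, 7.83 kb upstream, chr1:144185101-144185300: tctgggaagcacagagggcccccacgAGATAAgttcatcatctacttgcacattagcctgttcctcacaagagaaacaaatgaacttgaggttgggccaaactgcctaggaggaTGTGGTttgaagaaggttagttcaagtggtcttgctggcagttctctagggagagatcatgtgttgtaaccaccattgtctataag
Rgs13, 23.3 kb upstream, chr1:144200610-144200809: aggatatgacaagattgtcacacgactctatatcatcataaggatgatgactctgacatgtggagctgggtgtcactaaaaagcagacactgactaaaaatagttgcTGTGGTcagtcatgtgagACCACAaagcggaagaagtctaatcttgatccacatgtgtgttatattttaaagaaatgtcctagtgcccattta
Rgs2, 87.4 kb downstream, chr1:143916623-143916822: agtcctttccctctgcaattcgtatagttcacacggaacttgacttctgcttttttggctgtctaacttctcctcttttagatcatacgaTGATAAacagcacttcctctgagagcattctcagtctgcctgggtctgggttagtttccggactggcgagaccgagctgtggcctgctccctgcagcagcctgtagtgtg
The first holds 2 GATA matches and no RUNX match, the second 1 of each, the third 2 RUNX matches in opposite directions and no GATA match, and the last 1 GATA match.

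The region 69.3 kb upstream of Rgs1 (chr1:144318241-144318827, intergenic) was the most regular of the cluster, with a summit in all 8 libraries from 0 to 12 h and in neither at 24 h. Its rank was 39.3% and 63.8% before treatment and 44.7% and 83.2% after 2 h, the highest of any summit in the window. It was 13.0% and 38.3% after 6 h, and 16.0% and 14.1% after 12 h. Both 12 h values thus lay below both 0 h and both 2 h values, and the region left both lists at the next time point. Its 8 summits fell between positions 144318491 and 144318577, a stretch of the printed sequence that spans both GATA matches (144318494-144318499 and 144318544-144318549).

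Both lost regions near Rgs13 were upstream of its start and intergenic. The region 7.83 kb upstream (chr1:144184792-144185609) ranked at 62.7% and 51.8% at 0 h and had no summit in either 2 h library. It was listed again in 6 h replicate 2 (17.9%) and 12 h replicate 1 (14.9%), and in neither 24 h library. The region 23.3 kb upstream (chr1:144200398-144201020) ranked at 68.4% and 46.6% at 0 h, at 23.8% in 2 h replicate 1 and at 0.726% in 12 h replicate 1, and was in no 6 h or 24 h library. In both regions every later summit ranked below both 0 h summits. The 4 summits of the second region lay between 144200648 and 144200770, which takes in both RUNX matches, while the 4 of the first were spread over a wider interval, from 144185042 to 144185359.

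The fourth region present in both 0 h libraries lay 87.4 kb downstream of the Rgs2 start (chr1:143916366-143917079, intergenic). It ranked at 48.2% and 51.0% before treatment, 50.8% and 29.8% after 2 h, 37.1% and 17.6% after 6 h, 40.0% in 12 h replicate 2 and 4.17% in 24 h replicate 1. It was absent from 12 h replicate 1 and 24 h replicate 2, so it counted as neither lost nor gained at any time, although it was lost at 24 h on equal lists and with scores of 5 or more. This region is described although it was not called lost or gained, a choice made after its values were seen. The same holds for the region 5.58 kb downstream of the Rgs1 start (chr1:144243333-144243985), in the annotated 3′ untranslated part of the gene, which was in 6 libraries. It ranked at 66.5% in 0 h replicate 1, 6.35% in 2 h replicate 1, 17.3% and 50.6% after 6 h, and 28.0% and 19.4% after 12 h, and it was in neither 24 h library.

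**Figure D4:**
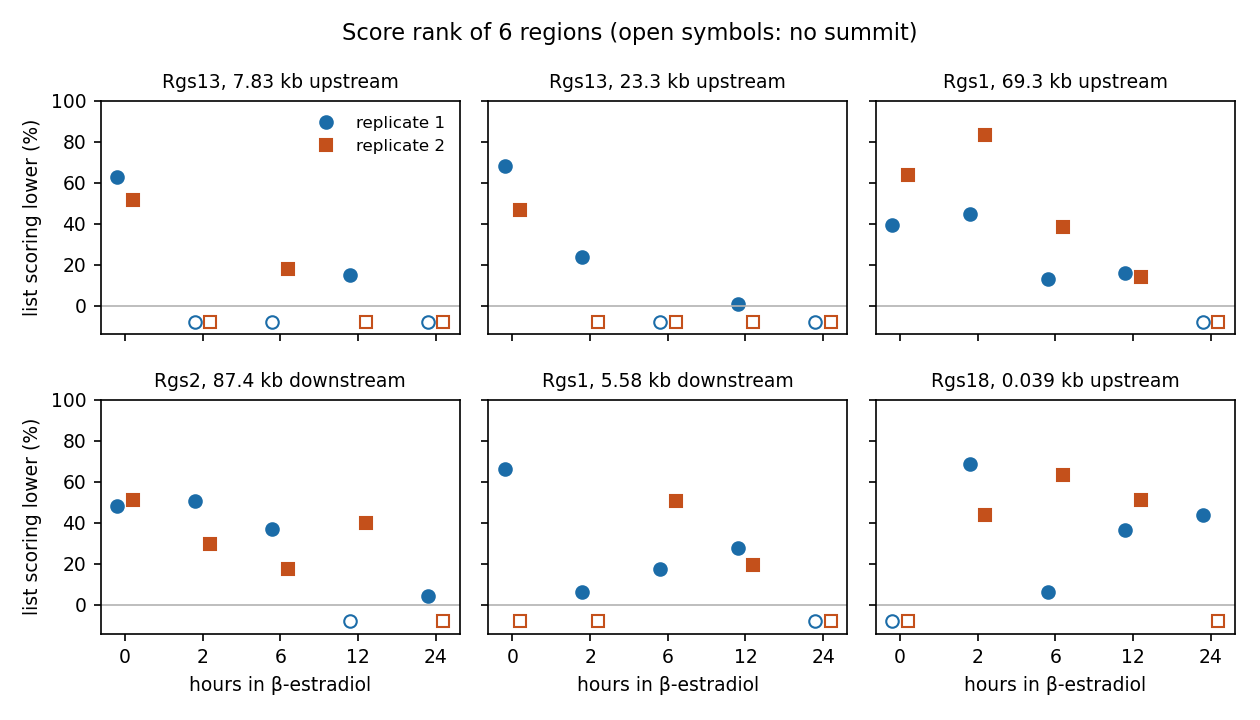
Percent of the list that scored lower (vertical axis) for the summit of 6 regions, against hours in β-estradiol (evenly spaced categories); circles are replicate 1, squares replicate 2, and open symbols below the zero line are libraries with no summit. The upper panels are the regions lost at 24 h, whose symbols at 24 h are all open, and the Rgs18 start (lower right) is open at 0 h and filled in both libraries from 2 to 12 h.

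Of the 5 members, Rgs18 had a promoter summit in the most libraries, 7 of 10. The region at the start (chr1:144775170-144775779) had no summit in either 0 h library. It ranked at 68.6% and 43.7% after 2 h, 6.21% and 63.6% after 6 h, and 36.8% and 51.2% after 12 h. At 24 h it was in replicate 1 (44.0%) and absent from replicate 2. It was thus called gained at 2, 6 and 12 h, and it was the only gained region of the cluster at 6 and at 12 h. On equal lists it was gained at 2 and 12 h and not at 6 h, and with scores of 5 or more at 2 h alone. Counted over promoters, with a summit within 1 kb of a start, Rgs18 was gained after 2 h (0.647% of the 21938 genes), after 6 h (1.03%) and after 12 h (0.725%). At 24 h (0.47%) no member promoter could be gained, because replicate 2 had no summit in the window.

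Both other regions gained at 2 h appeared and left again. The region 2.65 kb upstream of Rgs2 (chr1:144006525-144007088, intergenic) ranked at 61.7% and 13.7% at 2 h and at 23.3% in 6 h replicate 2, and was in no other library. The region in an intron of Rgs13 (chr1:144152749-144153690) was in the 2 h libraries alone, at 41.6% and 4.28%. Each had 1 low-ranking summit among its pair at 2 h.

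The promoters of the other members were rarely listed. Over all genes, 5702 of 21938 (26%) had a promoter summit in all 10 libraries. No member could, because 24 h replicate 2 had no summit in the window. The share of all genes listed in few or no libraries is not given. Rgs2 and Rgs21 had none in any library. Rgs13 had 1, in 0 h replicate 1, at position 144177433 in a region that ranked at 31.4%. Rgs1 had a promoter summit in 2 h replicate 2 (11.4%) and 6 h replicate 2 (43.6%) and in no 0 h or 24 h library. No member promoter was in both 0 h libraries, so none could be called lost at any time. Because the Rgs13 promoter carried its summit before GATA1 was activated, the 250 bases before its start are shown, read on the minus strand of chr1:144177373-144177622 (RefSeq promoter table, GRCm38.p6), with GATA matches in capitals.
Rgs13 promoter: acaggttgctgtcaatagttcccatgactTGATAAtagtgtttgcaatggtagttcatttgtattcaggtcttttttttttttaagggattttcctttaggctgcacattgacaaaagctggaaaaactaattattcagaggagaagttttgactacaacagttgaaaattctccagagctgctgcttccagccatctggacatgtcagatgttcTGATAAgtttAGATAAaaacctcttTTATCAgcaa
This sequence holds 4 matches to AGATAA or TGATAA on either strand, 3 of them close to the start, and 36% of it is G or C. Of the 32851 promoters of the same length in the table, 5452 (16.6%) hold at least 1 match and 122 (0.371%) hold 3 or more. The promoters of Rgs2 (72.4% G or C) and Rgs21 (32.8%) hold none. The Rgs21 sequence (chr1:144567668-144567917) lies before another start than the one used here for its summits (144551564).

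The guides that the study designed for the Rgs1 and Rgs13 promoters lay beside these summits. The 3 Rgs1 guides began 122 to 132 bases upstream of the start and lay 153 to 163 bp from the nearest Rgs1 summit, that of 2 h replicate 2. The 3 Rgs13 guides began 207 to 278 bases upstream and lay 155 to 226 bp from the summit of 0 h replicate 1. The guide nearest to a summit is given for each gene, without its PAM, which is TGG for both.
Rgs1 guide, chr1:144249364-144249383, plus strand: aagggggccatacacatctc
Rgs13 guide, chr1:144177579-144177598, plus strand: caaacactattatcaagtca
With 9 of the 10 lists holding no summit at the Rgs13 start and 8 none at the Rgs1 start, the targeted promoters were seldom called accessible in these libraries.

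The 15 remaining regions of the window were neither at a start nor lost or gained at any time. Of these, 6 were in 1 library, with ranks from 2.16% to 11.5%. The other 9 were in 2 to 4 libraries, and 7 of the 9 were in 6 h replicate 2, the longest list. In that group the region 72.0 kb upstream of Rgs2 was in 4 libraries, at 27.2% in 0 h replicate 1, 44.7% in 2 h replicate 1, 43.2% in 6 h replicate 2 and 36.6% in 12 h replicate 1, and the region 59.2 kb upstream of Rgs1 in 3, at 13.9% in 0 h replicate 1, 64.3% in 2 h replicate 2 and 43.9% in 6 h replicate 2. Both were named after their values were seen, as the ones in the most libraries and with the highest rank of this remainder.

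Counted gene by gene, the windows of 200 kb on each side of a member overlap, and Rgs13 and Rgs1 share most of theirs, so the 5 counts are not independent. The window of Rgs2 (ENSMUSG00000026360.9, chr1:143999338-144004161) held 6 and 4 summits before treatment, 7 and 4 after 2 h, 2 and 6 after 6 h, 3 and 3 after 12 h, and 2 and 0 after 24 h. That of Rgs13 (ENSMUSG00000051079.8, chr1:144138654-144177372) held 9 and 3, 9 and 6, 2 and 11, 5 and 3, and 1 and 0 in the same order. That of Rgs1 (ENSMUSG00000026358.13, chr1:144242296-144249242) held 9 and 3, 8 and 6, 2 and 10, 5 and 3, and 2 and 0. In these 3 windows both 24 h libraries lay below both 0 h libraries, beside 5.01% of all 21938 genes counted the same way.

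The windows of Rgs21 and Rgs18 held few summits at any time. That of Rgs21 (ENSMUSG00000098509.2, chr1:144516648-144567667) held 1 and 1 before treatment, 1 and 2 after 2 h, 1 and 3 after 6 h, 1 and 2 after 12 h, and 1 and 0 after 24 h. That of Rgs18 (ENSMUSG00000026357.3, chr1:144752683-144775435) held 0 and 0, 1 and 1, 1 and 3, 1 and 2, and 1 and 0. The 24 h values overlapped those of 0 h in both.

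At 24 h the mean count was lower than at 0 h for 4 of the 5 members, beside 31.9% of all 21938 genes counted the same way, with a median difference of −4 summits for the members and 0 for all genes. The remaining member, Rgs18, had more, as had 36.2% of all genes. The differences at 24 h were −4 for Rgs2, −0.5 for Rgs21 and +0.5 for Rgs18, and −5.5 and −5 for Rgs13 and Rgs1. On lists of equal size they were −4, −1 and 0.5, and −4.5 for each of Rgs13 and Rgs1. At 2 h all 5 members had more summits than at 0 h and 0 had fewer, beside 52.5% and 16.9% of all genes. At 6 h 3 had more and 1 fewer (67.6% and 7.64% of all genes). At 12 h 2 had more and 3 fewer (50.2% and 19.9%). On equal lists 3 members had fewer summits at 2 h and 4 at each of 6, 12 and 24 h, so the time from which most members were lower depended on the lists. Equal lists shorten the counts around other genes too, and the share of all genes lower on them is not given. The shares above come from all peaks and do not apply to these counts. Of the 10290 genes with a mean of 5 or more summits at 0 h, 6 (0.0583%) had none in 24 h replicate 2. These were Rgs1, Rgs13, Rgs2, Grm8, Robo2 and Ube2e3, a set named after the values were seen. The minimum of 5 equals the 0 h mean of Rgs2, so Rgs2 only just met it. The windows of Rgs1, Rgs13 and Rgs2 overlap, so these 3 are not separate cases and the share is not a rate of separate loci.

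Motif matches were counted in the central 200 bases of each region, on both strands. The GATA motif was in 14 of the 25 cluster regions (56%), against 27.2% of all regions, 37.9% of all regions over 1 kb from a start and 65.2% of all regions lost at 24 h. TAL1 and GATA factors together bind a composite of an E-box part and a GATA site (CTG, 7 or 8 bases, then AGATAA or TGATAA). The composite necessarily overlaps a GATA match. It was in 3 cluster regions (12%), against 5% of all regions and 7.12% of those over 1 kb from a start. These 3 were the Rgs13 start, the Rgs18 start and the region 2.65 kb upstream of Rgs2, and none was among the regions lost at 24 h. RUNX (TGTGGT) was in 10 (40%), against 16% of all regions and 20.4% of those over 1 kb from a start. AP-1 (TGANTCA) was in 5 (20%), against 6.73% and 8.86% in the same order. ETS (AGGAAG or CGGAAG) was in 8 (32%, against 36% and 33%). The CTCF core motif was in 2 (8%, against 15.6% and 17.8%), and KLF (CCACACCC) in 0 (against 3.45% and 3.73%). The cluster regions were also poorer in G and C, with a median of 44.5% beside 52.5% over all regions and 49% over those away from a start, which moves with the motif shares. Its part in them was not tested.

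**Figure D5:**
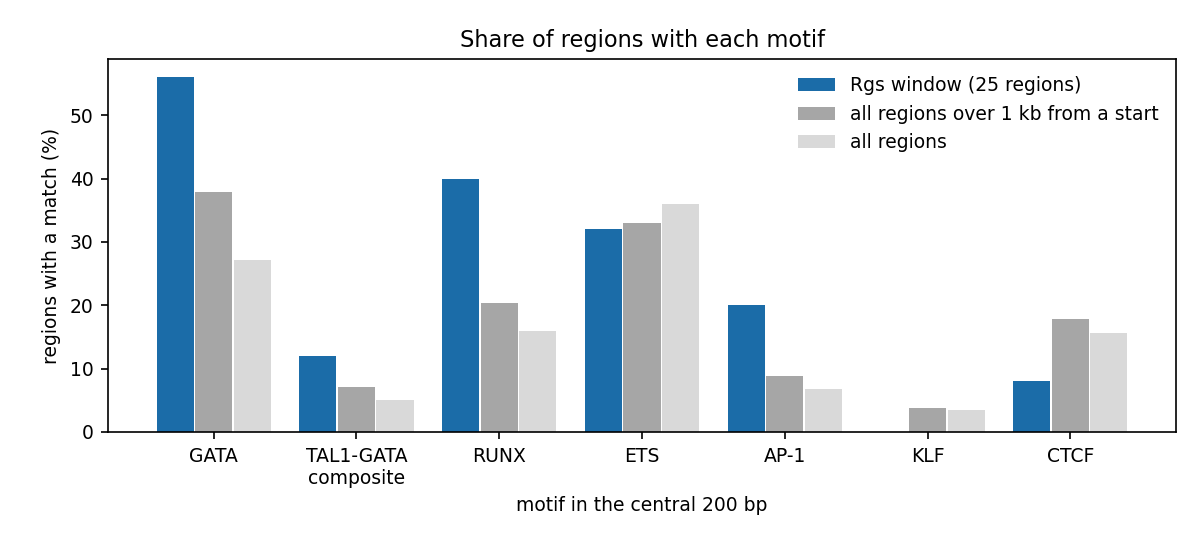
Percent of regions with a match to each of 7 motifs in the central 200 bp (vertical axis), for the 25 regions of the Rgs window (blue), all 19029 regions over 1 kb from a start (dark grey) and all 28981 regions (light grey). GATA, RUNX and AP-1 bars are taller for the Rgs window, ETS bars are close together, and KLF has no blue bar because no cluster region holds a match.

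The other genes of the pathway were read at their promoters. Of 16 further Rgs genes, 10 had no promoter summit in any library and 0 had one in all 10 (26% of all genes), with 0 to 6 genes listed per library. The share of all genes with no promoter summit in any library is not given, so the 10 cannot be set against it. Rgs14, whose protein acts on Gi alpha subunits, was in 5 libraries including both at 0 h and neither at 24 h, and so was lost at 24 h (0.529% of all genes). Rgs19, which also acts on the Gi class, was in 6 libraries, neither of them before treatment, and was gained after 2 h (0.647% of all genes) and after 6 h (1.03%). Rgs12 was in 5 libraries, Rgs10 in 4, and Rgs11 and Rgs20 in 1 each. Rgs14 was the only further Rgs gene listed in both 0 h libraries, so no other could be called lost. It was not lost at the 3 earlier times, when 0.351%, 0.0501% and 0.319% of all promoters were.

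The substrates of RGS proteins, the G alpha subunits, were listed at 5 to 7 of 13 promoters per library. Gnai2, Gnai3, Gna11 and Gna12 had a promoter summit in all 10 libraries, 4 of 13 genes beside 26% of all genes, and Gna13 had one in 9 and Gna15 in 8. Gnas, which encodes the stimulatory subunit, was in 5 libraries and was gained at 24 h (0.47% of all genes). The genes Gnai1, Gnao1, Gnaz, Gnaq, Gna14 and Gnal had none, and the share of all genes with none is not given. No G alpha promoter was lost at any time, where 0.0501% to 0.529% of all promoters were.

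The genes most like the cluster over the 10 libraries were sought among 10016 genes with a mean of 5 or more summits within 200 kb of the start, by Pearson correlation of summits per 10000 peaks. They were Exoc6 (r = 0.949), Gm10447 (r = 0.926), Abhd3 (r = 0.876), Nynrin (r = 0.868) and Fyn (r = 0.867). The points are the same 10 libraries and share their list sizes and replicate numbers, so r is a description. Exoc6, which encodes a subunit of the exocyst, held 11 and 8 summits before treatment, 7 and 16 after 6 h, and 9 and 3 after 24 h, and Fyn, a Src family kinase, held 6 and 4, 5 and 8, and 5 and 1. In both, as in the Rgs window, 24 h replicate 2 held the fewest summits and 6 h replicate 2 the most.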

How the data were processed

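ATAC-seq peak lists of 10 libraries, 2 at each of 5 time points, were used as deposited. The authors trimmed adaptors, aligned reads to mm10, kept uniquely placed reads and called peaks with MACS in each library (--nomodel). Bowtie2 is the aligner in the methods, whereas the submitters' processing notes list Bowtie 1.0.0, Picard and MACS2. A shift for the Tn5 cut is not given in the sources used here. In the deposited lists the score is −log10 of the q-value, at least 1.30 (q of 0.0499). Peaks on chromosomes 1 to 19, X and Y were kept, which left out 4 or 5 mitochondrial peaks per list. Groups and replicate numbers came from the sample titles.

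Starts were those of protein-coding transcripts of GENCODE M21 (41525 starts). Upstream and downstream distances run from the start on the gene's strand to the region midpoint, and percents of a list count peaks with a lower score. Motifs were read from GRCm38.p6 with pysam 0.24.0, and numbers computed with Python 3.11.15 and numpy 2.4.6. The code that calls regions lost or gained was tested on simulated lists. Regions were described singly if within 1 kb of a member start, lost or gained at any time, or in all 10 libraries. The 5 genes named by likeness had starts over 400 kb apart and outside the window. No depth is known, so no counting interval is given. The members, lists and motifs were chosen with earlier results of these data known, and no significance test was made. Alternatives were lists of equal size, score minimums of 2 and 5, flanks of 100 kb, windows of 301 and 1001 bp, promoter distances of 500 bp and 2 kb, motif windows of 400 bp and leaving out each library.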

Additional observations from a re-analysis of the deposited data

How the results depend on the processing

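The difference in summits at 24 h (−5) ran from −5.5 to −4.5 under equal lists, both score minimums and the shorter flank. Under these and the other window sizes 3 or 4 regions were lost at 24 h, the same 3 under equal lists and both score minimums. They were joined by the region 87.4 kb downstream of Rgs2 on equal lists and with scores of 5 or more. The 0 gained at 24 h under all of these was fixed by the empty window of 24 h replicate 2. Leaving out each library in turn gave −7.5 to −2.5 summits at 24 h, 3 to 8 regions lost (8 without 0 h replicate 2) and 0 to 3 gained (3 without 24 h replicate 2). Calls without a library are easier to meet for every region. The earlier time points depended on the lists. No share over all regions is given for the shortened lists or for calls without a library. On equal lists the differences at 2, 6 and 12 h were −0.5, −4 and −3.5, and with scores of 5 or more −0.5, −1.5 and −4, so those at 2 and 6 h reversed. Equal lists gave 2 lost and 1 gained after 2 h, 3 and 0 after 6 h, and 3 lost after 12 h. Scores of 5 or more gave 2 lost and 1 gained after 2 h, 3 and 0 after 6 h, and 3 and 0 after 12 h (the Rgs18 start was the region no longer gained), and scores of 2 or more gave 1 lost at 12 h.

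Leaving out libraries gave differences of 0 to 5 at 2 h, −2.5 (without 6 h replicate 2) to 7.5 at 6 h, and −3 to 2 at 12 h, above 0 without 0 h replicate 1 (2) or 12 h replicate 1 (0.5). Lost regions ran from 1 to 4 after 2 h, 1 to 2 after 6 h and 0 to 4 after 12 h, each highest without 0 h replicate 2 (at 6 h also without 6 h replicate 2), and also moved to 2 at 2 h without 0 h or 2 h replicate 1, and at 12 h to 2 and 1 without 12 h replicate 1 and 2. Gained regions ran from 3 to 6 at 2 h (6 without either 2 h library), 1 to 7 at 6 h (7 without 6 h replicate 1, 2 without 0 h replicate 1) and 1 to 4 at 12 h (4 without 12 h replicate 1, 2 without 0 h replicate 1).

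Each replicate number alone, an alternative chosen after seeing the data, gave −5 and 10 after 6 h and −4 and 3 after 12 h for replicates 1 and 2 with all peaks, and fewer summits in both on equal lists (−6 and −2, and −5 and −2). Promoter summits of Rgs13 numbered 3 within 2 kb of a start and 1 within 1 kb. The cause was not tested for any of these. No paired analysis was possible because no result comes from a test, and differences within replicate numbers stand as values only. Unknown depth and 2 libraries per group limit every count.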
